A study of Mus musculus with 6 samples.

Results

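The loci of Nr4a1, Nr4a2, Nr4a3, Fos, Per1 and Sik1, 6 textbook targets of cyclic AMP signalling and the transcription factor CREB, were examined in peak lists from chromatin immunoprecipitation with sequencing (ChIP-seq). Each locus was defined by 1 fixed window of the mouse build mm9, and its members were all listed peaks that overlap the window by at least 1 bp. The windows took in 22 of the 38760 peaks of all lists: 11 of 18185 treated and 10 of 17168 untreated H3K4me3 peaks, none of 821 treated or 1242 untreated H3K27me3 peaks, 1 of 604 treated input peaks and none of 740 untreated input peaks. The cells were C57BL/6 mouse embryonic fibroblasts (MEFs), connective-tissue cells grown from embryos. They had been exposed to the chemical combination named 6TCF or were untreated controls, and both were taken on day 6. The labels do not spell out what 6TCF contains. They describe a culture medium with serum and basic fibroblast growth factor and do not say whether the controls received it. Each of the 6 groups (H3K4me3, H3K27me3 and input DNA, in treated and untreated cells) consisted of 1 library, so differences between conditions could not be set against replicate error and no test is given. The titles name H3K4me3 and H3K27me3, while the antibody field names H3K4me2 and H3K4me1 for the same libraries. The titles were followed, and which antibodies were used is unsettled.

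Cyclic AMP activates protein kinase A, which phosphorylates CREB. CREB binds the cAMP response element in promoters and recruits co-activators, so that its targets are transcribed within minutes and fall again soon after. Nr4a1, Nr4a2 and Nr4a3 encode orphan nuclear receptors that act as immediate-early transcription factors. Fos encodes a subunit of the AP-1 transcription factor, Per1 a repressor of the circadian clock, and Sik1 a kinase that holds CREB's co-activators of the CRTC family in the cytoplasm. Trimethylation of histone H3 at lysine 4 (H3K4me3) marks active or poised promoters, and at lysine 27 (H3K27me3) it marks chromatin repressed by Polycomb complexes. Neither mark measures transcription.

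The promoters are shown because the response element is what places these genes in 1 class. RefSeq (GRCm38.p6) sequence was matched by symbol for 5 of the 6 genes, with 2 annotated starts for Per1. Sik1 is named only. The 250 bases before each annotated start are printed 5′ to 3′ on the gene's strand, and capitals mark the half-site TGACG on either strand (CGTCA where it lies on the other strand). Nr4a1 is at chr15:101266596-101266845 (plus strand), Nr4a2 at chr2:57124004-57124253 (minus strand), Nr4a3 at chr4:48045055-48045304 (plus), Fos at chr12:85473640-85473889 (plus), and Per1 at chr11:69098699-69098948 and chr11:69099902-69100151 (both plus). These are GRCm38.p6 positions and cannot be set against the mm9 positions of the peaks.
Nr4a1: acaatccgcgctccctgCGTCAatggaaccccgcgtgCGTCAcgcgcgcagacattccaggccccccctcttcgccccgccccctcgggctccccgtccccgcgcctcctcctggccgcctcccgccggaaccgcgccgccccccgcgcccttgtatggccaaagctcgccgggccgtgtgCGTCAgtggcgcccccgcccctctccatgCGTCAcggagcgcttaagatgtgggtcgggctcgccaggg
Nr4a2: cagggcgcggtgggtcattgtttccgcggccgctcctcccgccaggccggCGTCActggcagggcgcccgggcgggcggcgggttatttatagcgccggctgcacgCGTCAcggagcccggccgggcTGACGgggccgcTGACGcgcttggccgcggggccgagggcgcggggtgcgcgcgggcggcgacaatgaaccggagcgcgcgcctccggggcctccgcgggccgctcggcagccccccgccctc
Nr4a3: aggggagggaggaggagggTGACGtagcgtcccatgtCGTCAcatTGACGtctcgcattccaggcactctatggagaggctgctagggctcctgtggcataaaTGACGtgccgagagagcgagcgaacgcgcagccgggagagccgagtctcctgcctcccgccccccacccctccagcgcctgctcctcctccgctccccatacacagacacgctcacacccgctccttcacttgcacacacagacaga
Fos: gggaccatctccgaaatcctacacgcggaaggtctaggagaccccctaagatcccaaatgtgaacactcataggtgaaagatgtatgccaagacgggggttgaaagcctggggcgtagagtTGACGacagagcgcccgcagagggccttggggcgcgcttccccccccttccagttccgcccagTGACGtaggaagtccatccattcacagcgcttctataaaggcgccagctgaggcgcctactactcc
Per1, promoter 1: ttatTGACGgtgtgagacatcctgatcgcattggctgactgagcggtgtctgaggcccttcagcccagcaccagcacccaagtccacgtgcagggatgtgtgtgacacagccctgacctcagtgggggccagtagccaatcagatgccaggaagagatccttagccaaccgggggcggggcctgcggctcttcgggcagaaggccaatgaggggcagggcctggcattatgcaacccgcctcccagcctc
Per1, promoter 2: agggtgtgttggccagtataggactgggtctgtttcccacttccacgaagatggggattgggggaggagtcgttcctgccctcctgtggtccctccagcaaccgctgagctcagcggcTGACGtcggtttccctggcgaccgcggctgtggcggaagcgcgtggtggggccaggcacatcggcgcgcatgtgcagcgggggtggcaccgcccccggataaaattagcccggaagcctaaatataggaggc

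All 6 of these promoters, from 5 genes, held the half-site TGACG, while 17.8% of 32851 RefSeq promoter entries of the same length did. The genes were chosen as CREB targets, so this contrast describes the choice of genes and is not a result of the ChIP-seq data. The promoters of the 3 Nr4a genes each held 4, that of Fos held 2 and those of Per1 held 1 each. At least 4 were found in 0.137% of all entries and at least 2 in 3.90%. In Nr4a1 all 4 half-sites lay on the other strand, the nearest of them at -40 to -36 relative to the start. In Fos the nearest half-site lay at -66 to -62. The full element TGACGTCA was in none of the 6 stretches and in 1.55% of all entries. Its absence says only that these letters do not occur in the 250 bases before these starts. The half-sites printed did not overlap one another.

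**Figure D1:**
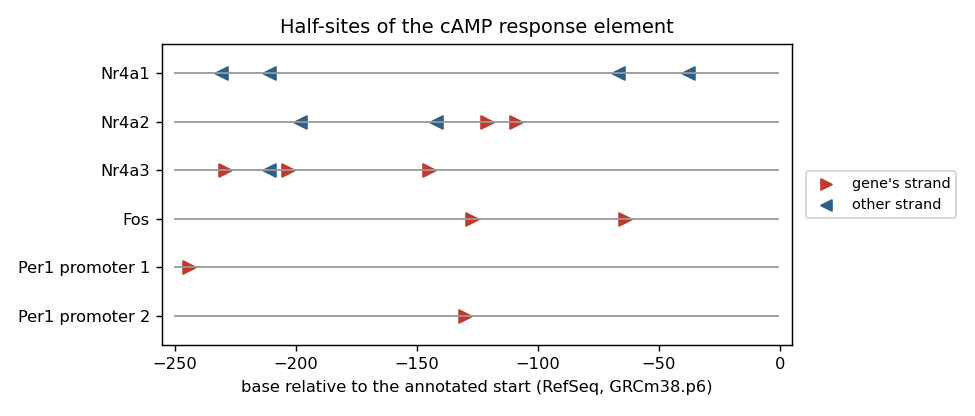
Half-sites TGACG in the 250 bases before each annotated start. The x axis gives the base relative to the start, each line is 1 promoter, and each triangle is 1 match on the gene's strand or the other strand. The Nr4a promoters carry 4 matches each, Fos 2 and the Per1 promoters 1 each.

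The promoters were also rich in G and C. Their GC content ran from 58.4% (Fos) to 80.0% (Nr4a2), against a median of 52.4% over all entries. The ratio of observed to expected CpG dinucleotides was 1.05 in Nr4a1, 1.10 in Nr4a2, 0.72 in Nr4a3, 0.70 in Fos, and 0.38 and 0.76 in the 2 Per1 promoters, against a median of 0.37. The half-site contains a CpG, so its frequency moves with base composition: among the 10574 entries with at least 58.4% GC, 26.7% held at least 1 half-site, 7.28% at least 2 and 0.340% at least 4.

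Every one of the 6 windows held H3K4me3 in both conditions, and no H3K4me3 peak in them was listed in 1 condition only. All 11 treated peaks overlapped an untreated peak, and all 10 untreated peaks overlapped a treated one. Across the whole lists, 10.2% of treated and 4.73% of untreated H3K4me3 peaks were in 1 list only. A count of none among 11 and 10 is therefore close to that of the lists as a whole. The unequal counts come from the edge of the Nr4a2 window: the untreated partner of 1 treated peak ends 134 bp below it. The peaks thus formed 11 pairs, each made of 1 treated and 1 untreated peak with no further H3K4me3 peak of either list touching them. They are numbered here by increasing position within a locus.

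**Figure D2:**
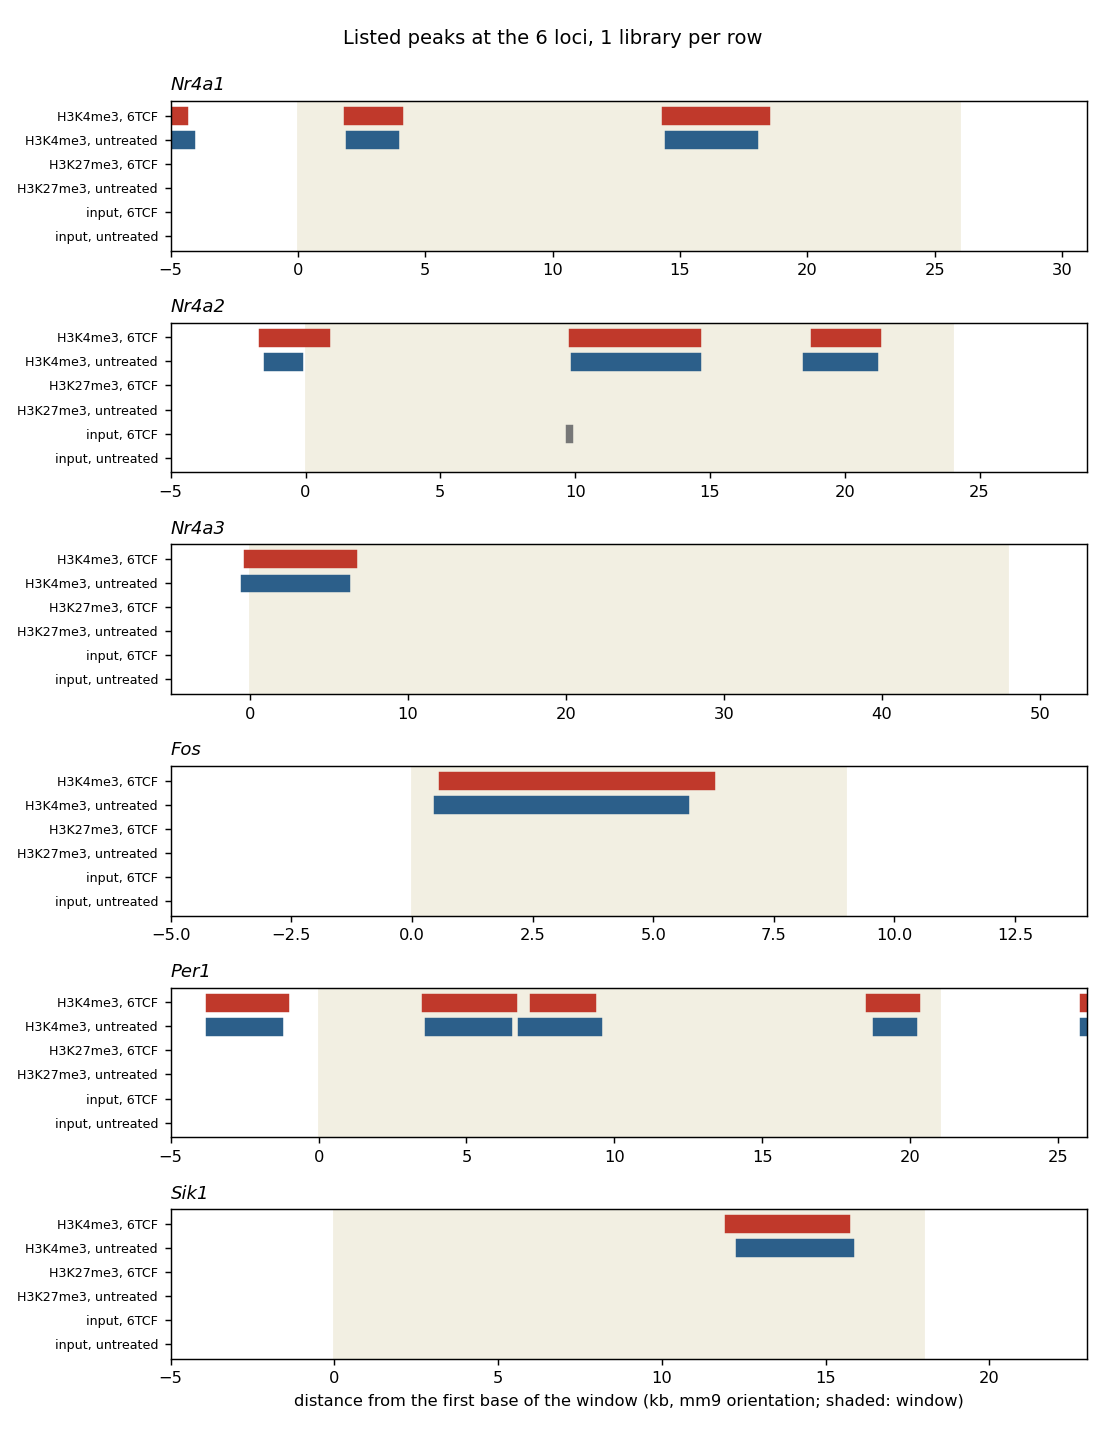
Listed peaks in the 6 windows (shaded) and 5 kb on either side, 1 library per row, with distance from the first base of the window in kb on the x axis. H3K4me3 peaks of treated cells (red) and untreated cells (blue) overlap pairwise at all 6 loci, although the untreated partner of the first Nr4a2 peak lies outside its window. No H3K27me3 peak is drawn, and 1 treated input peak (grey) lies at Nr4a2.

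Nr4a1 had 2 pairs in its window at chr15:101082000-101108000. The first was 2287 bp wide in treated cells (chr15:101083787-101086073) and 2063 bp in untreated cells. The second, 10.2 kb further along in treated cells, was 4194 bp in treated cells (chr15:101096283-101100476) and 3615 bp in untreated cells. Both peaks were wider in the treated list, 1.11-fold and 1.16-fold.

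Nr4a2, at chr2:56956000-56980000, had 3 pairs that behaved differently. The middle pair, the widest, measured 4849 bp in treated cells (chr2:56965775-56970623) and 4753 bp in untreated cells, and the 2 peaks shared 98.0% of the bases they covered together. The third measured 2543 bp in treated cells (chr2:56974752-56977294) and 2753 bp in untreated cells. The first lies across the lower edge of the window and measured 2589 bp in treated cells (chr2:56954282-56956870) against 1417 bp in untreated cells (chr2:56954449-56955865). This 1.83-fold difference was the largest among the 11 pairs, and its log2 ratio of 0.87 exceeded that of 98.2% of all pairs of the lists. Of the treated peak's bases, 1718 lay outside the window, as did the whole untreated peak. The middle pair also met the single input peak found at the loci, of 213 bp in treated cells (chr2:56965657-56965869), which overlapped 95 bp of the treated and 7 bp of the untreated H3K4me3 peak. Of all H3K4me3 peaks, 0.841% in treated and 0.88% in untreated cells met an input peak of either condition. The part of input signal in the treated edge of this peak was not tested.

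Nr4a3 and Fos each had a single wide peak. At Nr4a3 (window chr4:48055000-48103000) it spanned 7131 bp in treated cells (chr4:48054608-48061738) and 6874 bp in untreated cells. At Fos (window chr12:86812000-86821000) it spanned 5710 bp in treated cells (chr12:86812552-86818261) and 5274 bp in untreated cells, which is 63.4% and 58.6% of that window. Both were slightly wider in the treated list, by 1.04-fold at Nr4a3 and 1.08-fold at Fos. No peak wider than 9030 bp was listed in treated and 9151 bp in untreated cells, so both lie within the range of widths the lists hold.

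Per1 had 3 pairs in its window at chr11:68905000-68926000, and they went in different directions. The first measured 3174 bp in treated cells (chr11:68908504-68911677) and 2907 bp in untreated cells. The second measured 2177 bp in treated cells (chr11:68912165-68914341) and 2818 bp in untreated cells, and was the pair with the lowest ratio, 1.29-fold narrower in the treated list. The third measured 1789 bp in treated cells (chr11:68923527-68925315) and 1446 bp in untreated cells, 1.24-fold wider in the treated list. Between the first and the second pair, 487 bp without a listed peak lay in treated cells and 224 bp in untreated cells, both less than the average fragment length of 600 bp named in the protocol. Whether these are 2 domains or 1 was not determined. When peaks no more than 500 bp apart were joined, the Per1 total went from 31 fewer bases in treated cells (log2 ratio -0.01) to a log2 ratio of 0.04.

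Sik1 had 1 pair in its window at chr17:31978000-31996000. It measured 3781 bp in treated cells (chr17:31989945-31993725) and 3571 bp in untreated cells, a 1.06-fold difference. No other H3K4me3 peak was listed within 176 kb on either side of this window in either condition.

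**Figure D3:**
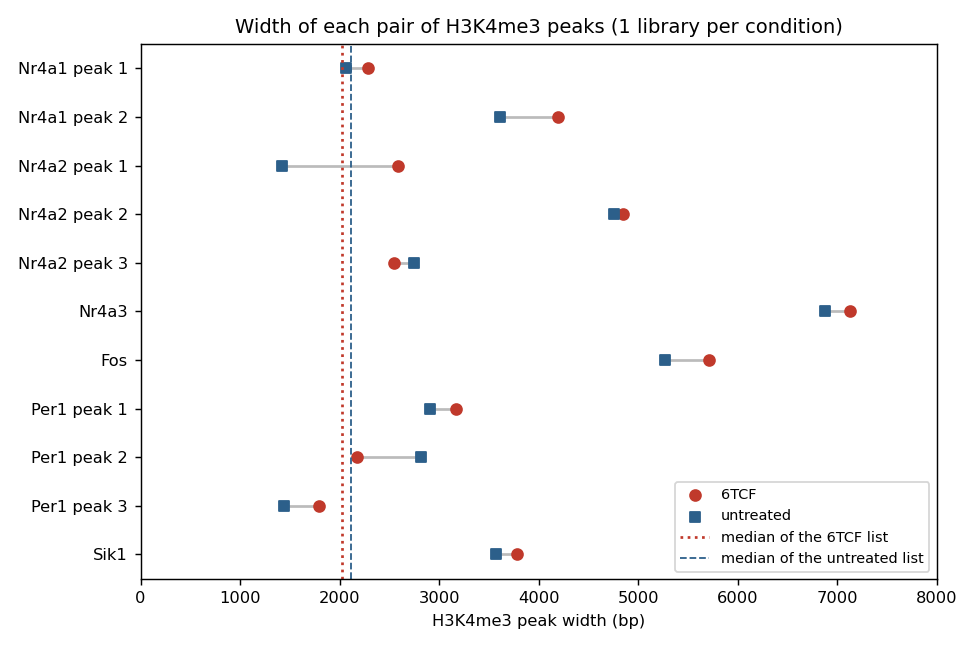
Width in bp of the 11 pairs of H3K4me3 peaks in treated (circles) and untreated (squares) cells, 1 library each, with the median width of each whole list as a vertical line. Nr4a3 has the widest peak in both conditions, 7131 and 6874 bp, and the treated value is the higher of the pair except at the third Nr4a2 and the second Per1 peak.

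The loci kept their order of width in both conditions. By the widest peak that overlaps each window, Nr4a3 came first, then Fos, Nr4a2, Nr4a1, Sik1 and Per1, in treated and in untreated cells alike. The last place of Per1 rests on its first 2 peaks being taken as separate. Joined, they would span chr11:68908504-68914341 in treated and chr11:68908613-68914561 in untreated cells, wider than the Fos peak in both lists. By summed bases in the window, Per1 also came before Fos, with 7140 against 5710 in treated and 7171 against 5274 in untreated cells. With no replicates, the difference between the lists at the same region was taken as a rough scale: its median size on the log2 scale was 0.154 over all 16153 pairs and 0.135 over the pairs within the members' range of mean width. In untreated cells the step from Nr4a1 to Sik1 was 0.0177, below both values, so these neighbours were not separated on this rough scale. The step from Nr4a1 to Sik1 in treated cells (0.1496) and that from Fos to Nr4a2 in untreated cells (0.1501) lay between the 2 values, so whether they exceed the scale depends on which is used. Steps between the other neighbours lay between 0.21 and 0.39. The scale is a median, which many pairs exceed. The standard deviation of the log2 ratio over all pairs was 0.329. Only the untreated steps from Nr4a3 to Fos (0.382) and from Nr4a2 to Nr4a1 (0.395) were larger than that.

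Most of the peaks were wide for their list. Of the 11 treated peaks 10 were above the median width of all treated H3K4me3 peaks (2026 bp). Of the 10 untreated peaks 8 were above that of the untreated list (2115 bp). The untreated count leaves out the partner of the first Nr4a2 peak, which lies outside the window. That partner measured 1417 bp and was wider than 26.9% of its list. The widest 10% of the list took in 4 treated peaks (Nr4a1, Nr4a2, Nr4a3 and Fos) and 3 untreated peaks (Nr4a2, Nr4a3 and Fos). At Nr4a3 the peak was wider than 99.6% of the treated and 99.3% of the untreated list, and at Fos wider than 98.4% and 96.9%. The third Per1 peak was the narrowest of its locus, wider than 41.2% of the treated and 27.9% of the untreated list.

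Peaks at the loci were more often wider than narrower in the treated list, by small amounts. Of the 11 pairs 9 were wider in treated cells, where 46.8% of all pairs were. The median log2 ratio was 0.11 over the 11 pairs (range -0.37 to 0.87) and -0.02 over all pairs, whose standard deviation was 0.33. Among the 11479 pairs within the members' range of mean width, 39.8% were wider in treated cells and the median was -0.05. The 11 pairs come from the same 2 libraries and several share a locus, so they are not replicates of the treatment. Leaving out the Nr4a2 pair at the window's edge, a choice made after it was seen, gave 8 of 10 pairs and a median of 0.10.

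Few of these differences were large. A width ratio of at least 1.2 in favour of treated cells was found in 2 pairs, the first Nr4a2 and the third Per1 peak, against 16.4% of all pairs. The same ratio in favour of untreated cells was found in 1, the second Per1 peak, against 12.4% of all pairs. The other 8 pairs differed by less than 1.2-fold. These shares of 2 and 1 in 11 are close to those of the lists as a whole.

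**Figure D4:**
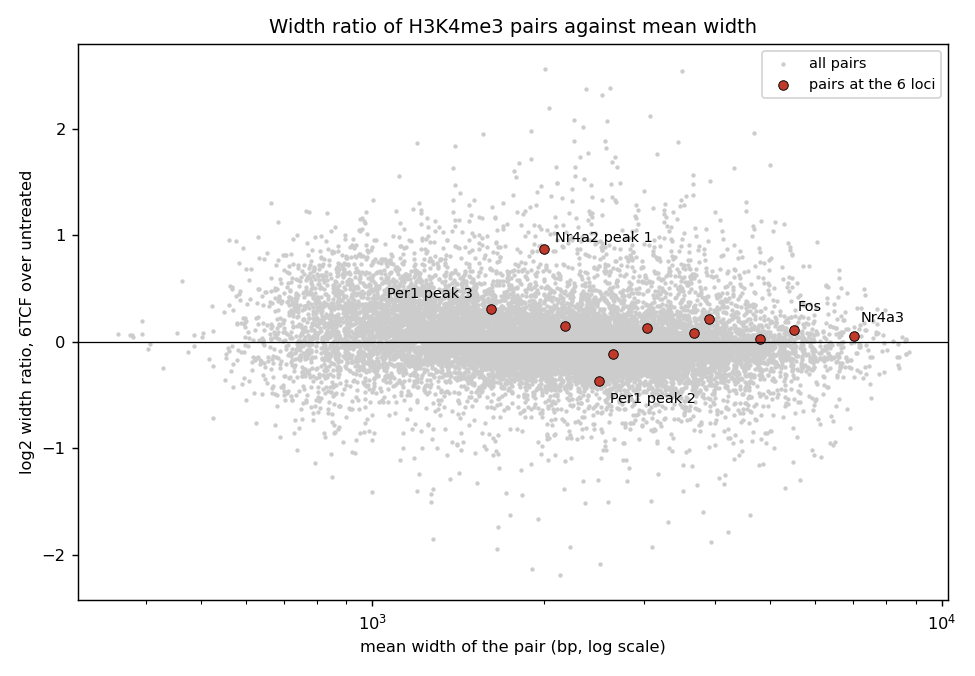
Log2 ratio of treated to untreated width (y axis) against the mean width of the pair in bp (x axis, log scale) for all 16153 pairs (grey) and the 11 pairs at the 6 loci (red). The members lie inside the cloud of all pairs, with the first Nr4a2 peak highest at 0.87 and the second Per1 peak lowest at -0.37.

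The edges of the peaks differed between the lists by 8 to 1005 bp. The higher-coordinate edge reached further out in treated cells in 9 of the 11 pairs, against 48.5% of all pairs, and the lower-coordinate edge in 7, against 48.6%. Both edges reached further out in 6 pairs (27.5% of all pairs), and both lay further in at the second Per1 peak alone (30.1% of all pairs). At Nr4a3 and Fos both edges of the treated peak lay at higher coordinates, and the peak was wider. The treated peak's reach changed by -181 and -94 bp at the lower edge, which lay further in, and by 438 and 530 bp at the higher edge. The 27.5% and 30.1% above leave many pairs of the lists with other edge patterns, so a mixed pattern is not particular to Nr4a3 and Fos. Both genes are on the plus strand in RefSeq, where higher coordinates are downstream, though their starts were not placed in mm9. By coordinate, the other edge moved outwards at Sik1, with a change of 329 bp at the lower edge and of -119 bp at the higher edge. The strand of Sik1 was not looked up, so no direction relative to transcription is given for it. The first Nr4a2 peak reached 1005 bp further at its higher edge. All of these distances except the last were below the 600 bp average fragment length.

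**Figure D5:**
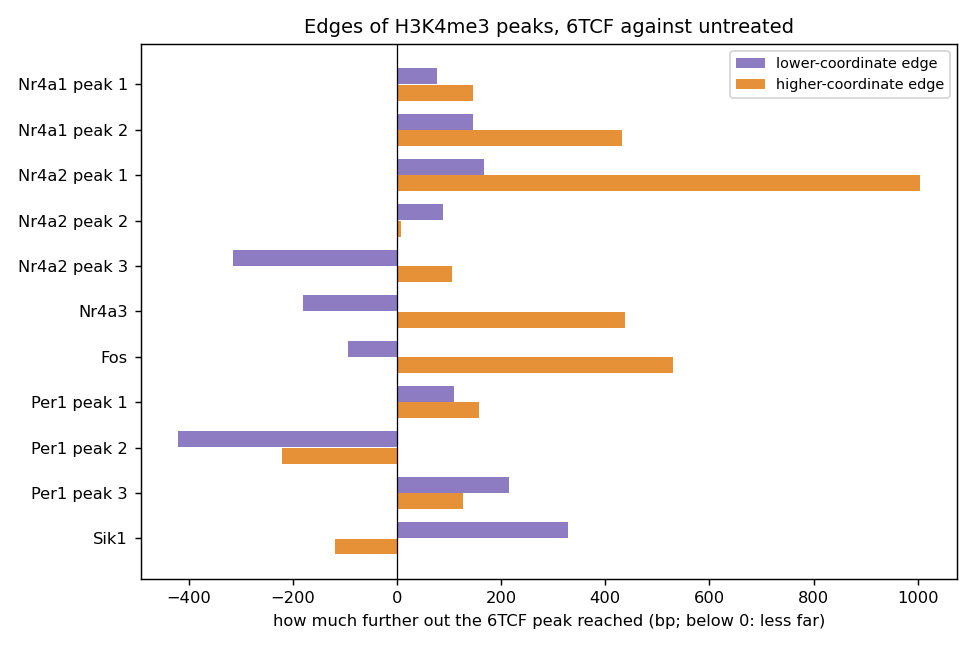
Distance in bp by which the treated H3K4me3 peak reached further out than the untreated one, at the lower-coordinate edge (purple) and the higher-coordinate edge (orange) of the 11 pairs, with values below 0 where it reached less far. The largest value is 1005 bp at the first Nr4a2 peak, and the second Per1 peak lies below 0 at both edges.

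Summed over a window, the bases under H3K4me3 peaks numbered 6481 in treated and 5678 in untreated cells at Nr4a1, 8263 and 7506 at Nr4a2, and 6739 and 6301 at Nr4a3. At Fos they numbered 5710 and 5274, at Per1 7140 and 7171, and at Sik1 3781 and 3571. Treated cells thus had more at every locus except Per1, and 38114 against 35501 bases over all 6 (log2 ratio 0.10). The whole treated H3K4me3 list also covered more than the untreated one, 40.59 against 39.96 Mb. How often other windows of this kind hold more bases in treated cells was not computed. Several of these sums depend on the window. At Nr4a2 the log2 ratio of 0.14 counts the treated peak at the window's edge but not its untreated partner of 1417 bp, which lies outside. It was 0.16 in the window widened by 5 kb on each side, which takes in both, and -0.02 when peaks with their midpoint outside the window were left out. Without the middle pair that meets the input peak it was 0.31, and with whole peak widths 0.41, both again without that partner. At Nr4a1 it was 0.19, and 0.12 in the widened window. At Nr4a3 it was 0.10, and 0.05 in the widened window.

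No H3K27me3 peak was listed in any of the 6 windows in either condition. Across the lists, 1.36% of treated and 2.81% of untreated H3K4me3 peaks overlapped an H3K27me3 peak of their condition, so a count of none among 11 and 10 is close to that of H3K4me3 peaks in general. The absence of a listed peak does not show absence of the mark, since the depth of these libraries and the calling threshold are unknown. The H3K27me3 peaks covered only 0.173 Mb in treated and 0.367 Mb in untreated cells. Input peaks covered 0.134 and 0.155 Mb, and H3K4me3 peaks 40.59 and 39.96 Mb. With so few bases listed for H3K27me3, an empty window is likely at any locus and is not particular to these 6. The nearest H3K27me3 peak to an H3K4me3 peak of these loci lay at a median of 810 kb in treated and 702 kb in untreated cells, against 949 and 507 kb for all H3K4me3 peaks. The closest lay outside the Per1 window in treated cells, 7.45 kb above the window and 8.135 kb from the third Per1 peak. It was a peak of 127 bp (chr11:68933451-68933577) that overlapped no input peak. Its width was below the median of 149 bp for that list and 146 bp for treated input. Directly below it lay another H3K4me3 peak outside the window, at chr11:68930753-68933087 in treated cells. In untreated cells the nearest H3K27me3 peak to the Per1 window was 689 kb away. At every other locus the nearest one lay closer to the window in untreated cells, whose list is the longer (1242 against 821 peaks). At Nr4a1 it lay at 789 kb in treated and 78.3 kb in untreated cells, and at Sik1 at 594 and 101 kb. At Nr4a2 no H3K27me3 peak lay within 1532 kb of the window in either condition.

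In RefSeq order (GRCm38.p6), the protein-coding neighbours are Grasp and Atg101 for Nr4a1, Kcnj3 and Gm52512 for Nr4a2, Sec61b and Stx17 for Nr4a3, Tmed10 and Jdp2 for Fos, Vamp2 and Hes7 for Per1, and Cryaa and Hsf2bp for Sik1. Nr4a2 alone among the 6 is also overlapped by another annotated protein-coding gene, LOC105244150. Which peaks of a window belong to the promoter of the named gene, to a second start or to a neighbour was not determined. This bears most on Nr4a1, Nr4a2 and Per1, which had more than 1 peak. Outside the windows, shared H3K4me3 peaks lay 1.02 kb (treated) and 1.23 kb (untreated) below the Per1 window and 4.35 and 4.10 kb below that of Nr4a1. Another lay 4.75 kb above the Per1 window in both conditions.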

How the data were processed

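ChIP-seq libraries titled H3K4me3, H3K27me3 and input DNA from 6TCF-treated and untreated MEFs on day 6 were used, 1 per group. Bowtie2 2.2.5, MACS 1.4.3, HOMER, CASAVA 1.7 and mm9 appear in the submitters' processing notes without role or order. Which caller, threshold and control gave each list is not given in the sources used here. Per library, the authors deposited 1 peak list with chromosome, start, end and a constant strand sign. Read depth is unknown, no peak has a height or score, and width depends on depth, antibody yield and threshold.

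Starts were read as 0-based and are printed 1-based. Windows came with the choice of the 6 genes, and all their peaks are named. Genes, windows and motifs were chosen with earlier results of these data known. Overlaps, pairs, widths and percentiles (ties shared equally) were computed with numpy 2.4.6 under Python 3.11.15, tested on simulated data, and overlap counts were checked against bedtools 2.31.1. Promoters came from RefSeq tables of GRCm38.p6, another build than the files, so peaks were not assigned to genes and a planned list of other CREB pathway genes was not evaluated. Alternatives were stricter widths, lists of equal length, joined or input-free peaks, a 50% overlap, whole peak widths and wider windows.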

Additional observations from a re-analysis of the deposited data

How the results depend on the processing

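No paired analysis was possible because each group held 1 library. The number of H3K4me3 peaks in 1 list only was 0 in both conditions under every alternative tried, and the numbers of peaks, of pairs and of pairs wider in treated cells stayed within 1.5 times the reported values. The median log2 width ratio of 0.11 became 0.10 with peaks up to 500 bp apart joined, 0.12 without input-overlapping peaks and 0.10 with midpoints inside the window. The log2 ratio of summed bases over the 6 loci, 0.10, became 0.112 with joined peaks, 0.0916 in windows widened by 5 kb, 0.114 without input-overlapping peaks, 0.157 with whole peak widths (the treated Nr4a2 peak at the window's edge counted in full, its untreated partner not) and 0.0691 with midpoints inside the window. At Per1 it changed sign from -0.00625 to 0.0446 with joined peaks and to 0.0273 in widened windows, and at Nr4a2 it went from 0.139 to -0.0221 with midpoints inside the window. In windows widened by 50 kb, 1 treated H3K27me3 peak was counted, the one near Per1. Unknown read depth limits every statement on width or absence.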
